A study of Sus scrofa with 54 samples.

Results

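The wall of the piglet ileum was followed through 4 genes of its connective tissue: the collagen genes COL1A2, COL3A1 and COL14A1, and the fibulin gene FBLN1. The members were all probesets that carried one of these gene symbols, and they came to 5 of the 24029 probesets tested, because COL1A2 was measured by a pair of probesets. COL1A2 was read by Ssc.24975.1.S1_at and by the dimmer Ssc.9362.1.A1_at, COL3A1 by Ssc.10754.2.A1_at, COL14A1 by Ssc.15374.1.S1_at, and FBLN1 by Ssc.20870.1.S1_at. The COL14A1 probeset was named from a list in the study's supplementary material and not from the platform annotation.

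The connective tissue of the gut lies under the epithelium and between the muscle layers, where fibroblasts and smooth muscle cells secrete collagens, elastic fibre proteins and proteoglycans. Fibrillar collagens such as types I and III form the load-bearing fibres, type XIV collagen sits on the surface of those fibres and affects their spacing, and fibulins join elastic fibres and basement membranes to other matrix proteins. COL1A2 encodes a chain of type I collagen, COL3A1 the chain of type III collagen, COL14A1 the chain of type XIV collagen, and FBLN1 the secreted glycoprotein fibulin-1.

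The data were 54 arrays of total RNA from ileal tissue of Large White × Landrace piglets, 6 in each of 9 groups formed by 3 rearing treatments and 3 ages. OUT piglets stayed with the sow outdoors, and IN piglets stayed with the sow indoors. IR piglets were moved from indoor sows to individual isolator units soon after birth and received antibiotics every day. They were fed milk replacer until day 28. Isolation, antibiotic treatment, removal from the sow and the milk replacer therefore cannot be told apart in IR. Tissue was taken at day 5, day 28 (the day of weaning) and day 56, from different piglets at each age, and after weaning all groups ate creep feed. The piglets of all treatments had the same sire. The litters of the indoor sows supplied both IR and IN piglets, while OUT piglets had other dams at another site. The litter of each array was not given in the labels. Values are gcRMA signals on the log2 scale, so a difference of 1 is a 2-fold change, and a level of one probeset cannot be set against that of another. The tissue was bulk, so fewer cells of a type and less RNA per cell cannot be told apart.

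The tissue label was checked against known genes. EPCAM of the epithelium (12.6 to 13.3) and ACTG2 of visceral smooth muscle (12.7 to 14.3) were bright on all 54 arrays, as were the matrix genes SPARC (12.1 to 13.2) and DCN (10.9 to 12.3). FABP6, the ileal bile acid binding protein, ran from 12.2 to 14.3 at day 56. Its group medians were 9.95 to 11.5 at day 28, when the lowest array, in IN, was at 2.52. At day 5 its group medians were only 2.70 to 2.97. One array stood farthest apart. OUT day 5 replicate 3 correlated with the rest of its group at a mean r of 0.881, against a group median of 0.964, and its epithelial marker mean was 9.85 where the group median was 11.7. The same array had the highest COL14A1 (6.90) and FBLN1 (9.77) of all 54 and the highest COL1A2 (7.41) of its group, so the members' differences from OUT at day 5, and the counts of called genes that rest on it, are also given without it. IN day 28 replicate 3 also differed from its group. Its T cell list mean was 3.26 and its B and plasma cell list mean 3.54, where the group medians were 6.81 and 7.37. Its mean r with the group was 0.935, against a median of 0.949. The IN day 28 results include this array, whose FBLN1 of 7.28 lay within its group's range of 6.34 to 8.25.

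COL1A2 (Ssc.24975.1.S1_at) moved over the widest range of the members, from 2.61 to 7.75, and 50 of the 54 arrays were at a log2 level of 4 or more. At day 5 the lowest, median and highest values were 5.78, 6.35 and 7.75 in IR, 4.95, 6.46 and 7.29 in IN, and 5.18, 6.79 and 7.41 in OUT. The 3 treatments overlapped almost completely at this age. At day 28 they were 2.99, 6.19 and 6.78 in IR, 2.61, 6.06 and 7.17 in IN, and 3.69, 5.01 and 6.76 in OUT. The spread at weaning was the widest of the 3 ages, with an SD of 1.37 in IR and 1.63 in IN. At day 56 they were 5.09, 5.81 and 6.66 in IR, 4.40, 5.23 and 6.51 in IN, and 3.38, 4.48 and 5.14 in OUT. By then 5 of the 6 IR arrays lay above every OUT array, while IN overlapped both.

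COL14A1 had its highest day 56 level in IR as well, while its medians in IN and OUT were nearly equal. At day 5 its lowest, median and highest values were 4.62, 5.02 and 5.86 in IR, 4.36, 4.80 and 6.23 in IN, and 4.16, 5.41 and 6.90 in OUT. At day 28 all 3 treatments were lower and overlapped, with 2.91, 3.99 and 4.89 in IR, 2.52, 4.09 and 5.87 in IN, and 3.14, 3.71 and 5.35 in OUT. At day 56 the values were 4.03, 5.31 and 6.31 in IR, 3.62, 4.13 and 5.28 in IN, and 2.69, 4.14 and 4.42 in OUT. The IR mean was then 5.17 ± 0.84 (SD, n = 6), close to its day 5 mean of 5.08 ± 0.45, whereas the OUT mean was 3.79 ± 0.73 against 5.44 ± 0.88 at day 5. The signal of this probeset was modest, at a level of 4 or more on 38 of 54 arrays.

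FBLN1 was measured well above the dim level on all 54 arrays. At day 5 its lowest, median and highest values were 7.46, 8.33 and 8.79 in IR, 7.55, 8.15 and 8.60 in IN, and 7.89, 8.39 and 9.77 in OUT. At day 28 they were 7.72, 8.31 and 8.53 in IR, 6.34, 7.43 and 8.25 in IN, and 7.67, 8.27 and 8.73 in OUT. IN was therefore the low group at weaning, its mean of 7.45 ± 0.67 (SD, n = 6) lying under 8.19 ± 0.34 in IR and 8.27 ± 0.38 in OUT. At day 56 they were 7.24, 7.79 and 8.34 in IR, 7.09, 7.74 and 8.27 in IN, and 6.61, 7.03 and 7.50 in OUT. OUT was the low group at this age, and 5 of the 6 IR arrays lay above all OUT arrays.

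COL3A1 was read by a dim probeset, at a level of 4 or more on only 7 arrays, and small differences in it sit near the bottom of the scale. Its group means ran from 2.93 ± 0.30 in IR and 2.93 ± 0.24 in IN at day 5 to 3.88 ± 0.28 in OUT at day 56 (SD, n = 6 each). In each treatment the mean was higher at each later age, although of these differences only the rise from day 5 to day 56 in IN passed the test described below. The lowest, median and highest values in OUT were 2.85, 3.27 and 4.17 at day 5, 3.05, 3.66 and 4.32 at day 28, and 3.66, 3.74 and 4.30 at day 56. The second COL1A2 probeset, Ssc.9362.1.A1_at, did not reach a level of 4 on any array, and its group means were all between 2.72 and 3.01. Its difference in OUT from day 5 to day 56 was 0.11. A probeset this near background tells little of a change of COL1A2, so what is said of COL1A2 below rests on Ssc.24975.1.S1_at alone and was not checked by another probeset.

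**Figure D1:**
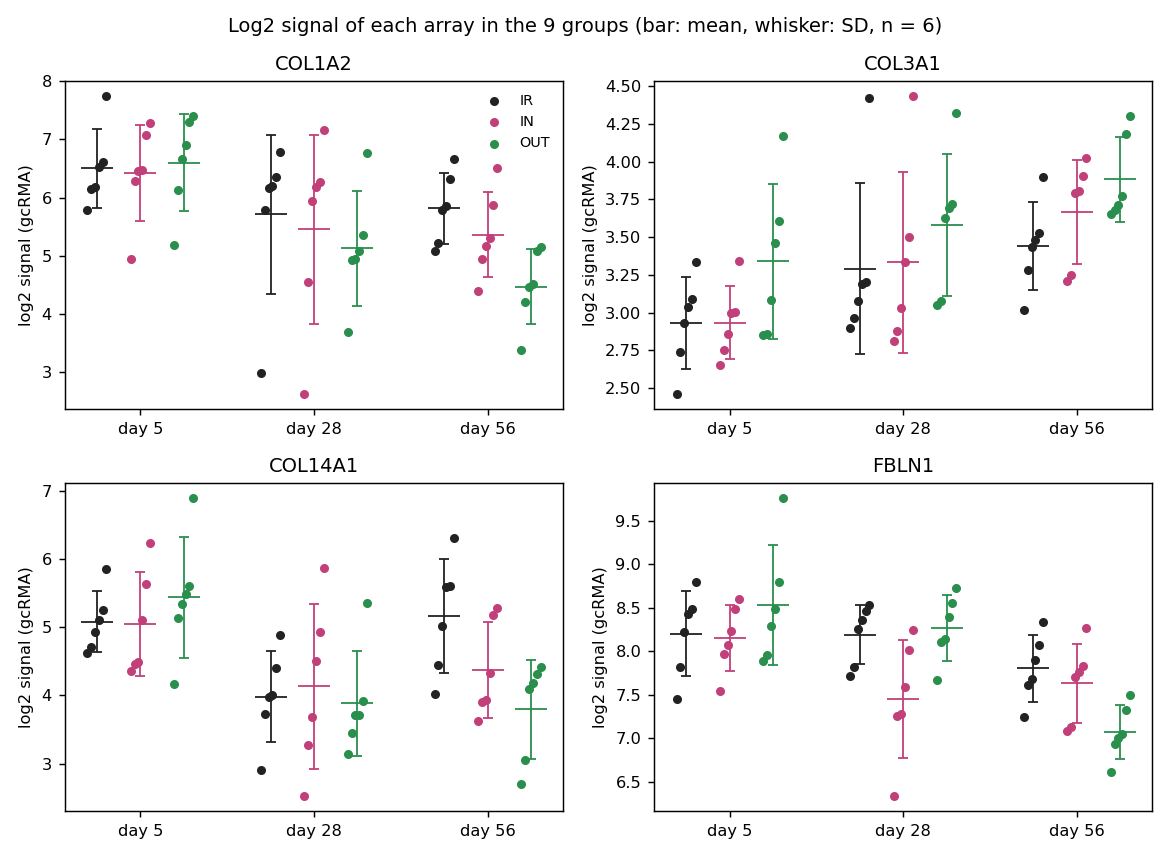
Log2 gcRMA signal (y axis) of the brightest probeset of each of the 4 genes on each of the 54 arrays, by day and rearing treatment (x axis), with the mean and SD of each group of 6. COL1A2, COL14A1 and FBLN1 were lowest on average in OUT at day 56, where COL3A1 had its highest mean of 3.88.

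When the 9 group means were put in order, COL1A2, COL14A1 and FBLN1 all began with OUT at day 5 and ended with OUT at day 56, while COL3A1 had OUT at day 56 at the top. In COL14A1 the second highest group was IR at day 56, a place that the IR group of that age did not hold for COL1A2 or FBLN1. No neighbours in any of these orders were farther apart than the larger of their SDs. Differences between groups made up 50.7% of the variance of FBLN1, 40.2% of COL14A1, 37.1% of COL3A1 and 35.7% of COL1A2 over the 54 arrays. For the second COL1A2 probeset the share was 15.0%. Some share arises without any group difference, and the share over all probesets was not computed.

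The first question was whether the rearing treatments differed at one age. By the study's criterion, which was an unadjusted limma p under 0.01 with at least a 2-fold change, at day 56 the IR arrays exceeded the OUT arrays in 2 of the 5 member probesets. These were COL1A2 and COL14A1, and 0.283% of all probesets met the criterion in that comparison, 0.141% as higher in IR. The study had picked these genes from this very comparison, so the count is no independent evidence of their direction. COL1A2 was 2.55-fold higher (log2 difference 1.35, SE 0.36, 95% interval 0.59 to 2.11, limma p = 0.00153, exact two-sided permutation p = 0.00433, n = 6 and 6). COL14A1 was 2.59-fold higher (log2 difference 1.37, SE 0.41, 95% interval 0.51 to 2.24, limma p = 0.00363, exact two-sided permutation p = 0.0195). Neither passed after Benjamini-Hochberg adjustment over all probesets (limma adjusted p = 0.650 for both). No probeset of the 24029 did so in this comparison by limma, and 7.19% had an unadjusted p under 0.05. The COL14A1 call was narrow and was lost, leaving 1 member called, when IR day 56 replicate 1, OUT day 56 replicate 1 or OUT day 56 replicate 2 was left out. COL1A2 no longer met the criterion when all 9 groups shared one fit.

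FBLN1 and COL3A1 differed by less than 2-fold in the same comparison. FBLN1 had a log2 difference of 0.74 (SE 0.21, 95% interval 0.29 to 1.19, limma p = 0.00302, exact permutation p = 0.00649, n = 6 and 6), a 1.67-fold higher mean in IR. COL3A1 had the opposite sign, at -0.44 (SE 0.17, limma p = 0.0202, exact permutation p = 0.0260). The second COL1A2 probeset had a difference of 0.03. Thus 4 of 5 member probesets were under an unadjusted p of 0.05, 3 with a positive sign and COL3A1 with a negative one. By limma 7.19% of all probesets were under that p. The 4 include COL1A2 and COL14A1, which the study had picked from this comparison.

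IN lay between IR and OUT at day 56 for these genes, and no member was called in either comparison with it. For IN against OUT, where 0.275% of probesets met the criterion, COL1A2 differed by 0.90 (limma p = 0.0234, exact permutation p = 0.0498) and FBLN1 by 0.56 (limma p = 0.0174, exact permutation p = 0.0281). Without IN day 56 replicate 2 the COL1A2 difference was 1.09 and met the criterion. COL14A1 differed by 0.58 and COL3A1 by -0.22, and neither was under an unadjusted p of 0.05, a level that 7.83% of all probesets reached by limma. For IR against IN, where 0.287% of probesets were called, no member was under an unadjusted p of 0.05 by limma or by the permutation test, and the largest difference was 0.79 for COL14A1. These comparisons share the arrays of each group.

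At day 28 FBLN1 came closest to a call, with its lowest mean in IN. Its log2 difference was -0.81 for IN against OUT (SE 0.27, limma p = 0.00765, exact permutation p = 0.0260, n = 6 and 6), 1.76-fold and so under 2-fold, and 0.74 for IR against IN (limma p = 0.0138). No member met the criterion at day 28, where it was met by 0.154% of probesets for IR against OUT, 0.191% for IN against OUT and 0.495% for IR against IN. FBLN1 was the 1 member under an unadjusted p of 0.05 by limma and by the permutation test in each comparison with IN, and there was none for IR against OUT. By limma 5.00% of all probesets were under that p for IN against OUT, 6.74% for IR against IN and 2.59% for IR against OUT. At day 5 no member was called, and none had an unadjusted p under 0.05 by either test. The smallest limma p at day 5 was that of COL3A1 for IR against OUT, at a log2 difference of -0.41, or -0.35 without OUT day 5 replicate 3. Without that array the differences of the other members from OUT lay between -0.13 and 0.18, and no member was called. The criterion was met at day 5 by 0.337%, 0.0499% and 0.366% of probesets for IR against OUT, IN against OUT and IR against IN.

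**Figure D2:**
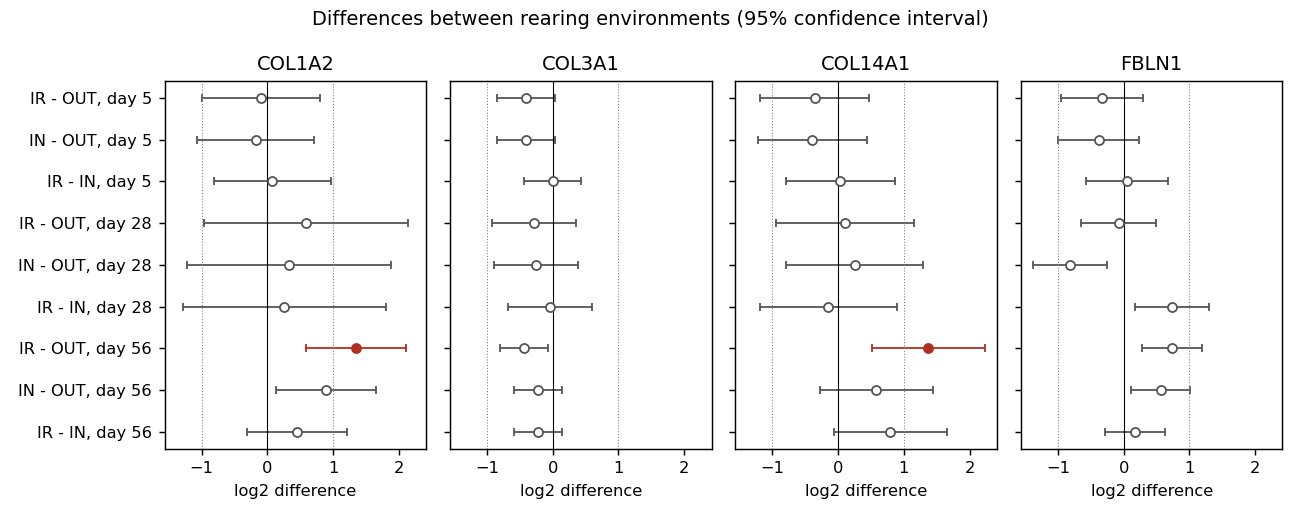
Log2 difference (x axis) of the brightest probeset of each gene for the 9 comparisons of rearing treatments (y axis), with 95% intervals. Filled red points met p under 0.01 with at least a 2-fold change, and dotted lines mark 2-fold. The 2 filled points are COL1A2 (1.35) and COL14A1 (1.37) for IR against OUT at day 56.

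The second question was how the genes changed with age within a treatment. Here calls were made at a limma adjusted p under 0.05 over all probesets, with the 9 groups in one fit. The OUT piglets showed the clearest change, and in them COL1A2, COL14A1 and FBLN1 fell between day 5 and day 56. That was 3 of 5 member probesets called, where 27.1% of all probesets were called and 14.1% were lower. The study had picked COL1A2 and COL14A1 from IR against OUT at day 56, which uses the same OUT day 56 arrays. The calls of COL1A2 and COL14A1 here are therefore not independent of that choice.

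COL1A2 fell 4.39-fold in OUT (log2 difference -2.13, SE 0.55, 95% interval -3.25 to -1.02, limma adjusted p = 0.00278, exact permutation p = 0.00216, n = 6 and 6). COL14A1 fell 3.12-fold (log2 difference -1.64, SE 0.45, limma adjusted p = 0.00481, exact permutation p = 0.00866). FBLN1 fell 2.76-fold (log2 difference -1.46, SE 0.27, limma adjusted p = 4.31e-05, exact permutation p = 0.00216). The day 5 and day 56 values of COL1A2 and of FBLN1 did not overlap, which was the case for 9.72% of all probesets, and 0.00216 is the smallest p that 6 arrays against 6 can give. Without OUT day 5 replicate 3, the array that stood apart, the differences were -1.97 for COL1A2 (limma adjusted p = 0.00795), -1.35 for COL14A1 (0.0217) and -1.22 for FBLN1 (0.000283). COL3A1 had a difference of 0.55 (limma adjusted p = 0.0865) and was not called. Without OUT day 5 replicate 3 it was 0.60 (limma adjusted p = 0.0702), and without OUT day 5 replicate 6 it was 0.71 and was called.

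The intervals on either side of weaning held different calls. COL14A1 fell 2.94-fold between day 5 and day 28 in OUT (log2 difference -1.56, SE 0.45, limma adjusted p = 0.0131, exact permutation p = 0.00866), and it was the 1 member called among 17.1% of all probesets, 9.44% of them lower. Its difference without OUT day 5 replicate 3 was -1.26 (limma adjusted p = 0.0481). COL1A2 had a difference of -1.48 over the same interval (SE 0.55, limma adjusted p = 0.0577), and its call moved with single arrays: it was called, which gave 2 members, without OUT day 28 replicate 1 or OUT day 5 replicate 2, and was farther from a call without OUT day 5 replicate 3 (-1.31, limma adjusted p = 0.114). FBLN1 differed by -0.27 before weaning (-0.02 without OUT day 5 replicate 3) and fell 2.29-fold after it, between day 28 and day 56 (log2 difference -1.20, SE 0.27, limma adjusted p = 0.00370, exact permutation p = 0.00216). It was the 1 member called in that interval, when 7.67% of all probesets were called and 3.34% were lower. Its day 28 and day 56 values did not overlap, which was so for 3.17% of all probesets.

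In IN piglets the single call was a rise of COL3A1 between day 5 and day 56 (log2 difference 0.73, SE 0.24, limma adjusted p = 0.0175), among 29.8% of all probesets called and 13.4% called as higher. The rise was under 2-fold and in a dim probeset. COL1A2 differed by -1.06 (limma adjusted p = 0.144), COL14A1 by -0.67 (0.269) and FBLN1 by -0.52 (0.140) over the same ages. Between day 5 and day 28, when 21.1% of probesets were called, no member was, although FBLN1 at -0.70 (limma adjusted p = 0.0563) and COL14A1 at -0.92 (0.144) were under an unadjusted p of 0.05 by limma, which made 2 members against 1 by the permutation test, where 34.1% of all probesets were under that p by limma. FBLN1 was called when IN day 28 replicate 1, IN day 28 replicate 4 or IN day 5 replicate 5 was left out, and without IN day 28 replicate 4 COL14A1 was called as well. Between day 28 and day 56 no member was called or had an unadjusted p under 0.05, and 5.31% of probesets were called.

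In IR piglets no member was called by limma between any pair of ages, among 14.0% of probesets called from day 5 to day 28, 4.89% from day 28 to day 56 and 19.8% from day 5 to day 56. COL14A1 had a difference of -1.10 up to weaning (limma adjusted p = 0.0987, exact permutation p = 0.00649, n = 6 and 6) and of 1.18 after it (limma adjusted p = 0.127, exact permutation p = 0.0195), so that its day 56 level was 0.09 above that of day 5. The course went down and back up, but neither step passed the test across all probesets. Unadjusted p-values under 0.05 were found for 2, 1 and 1 members in these intervals, by limma and by the permutation test alike, where 26.8%, 18.5% and 31.6% of all probesets were under that p by limma, so these counts were near the background. Between day 5 and day 56 the differences were -0.68 for COL1A2 (limma adjusted p = 0.430), -0.40 for FBLN1 (0.326) and 0.51 for COL3A1 (0.134).

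**Figure D3:**
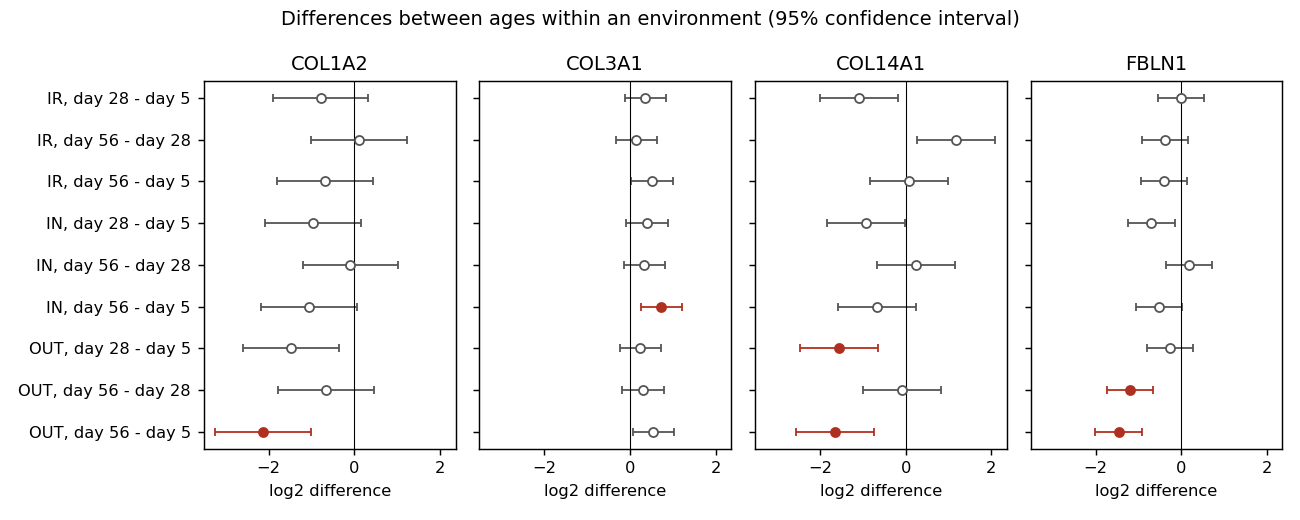
Log2 difference (x axis) of the brightest probeset of each gene between ages within each rearing treatment (y axis), with 95% intervals. Filled red points had an adjusted p under 0.05. The falls of COL1A2 (-2.13), COL14A1 (-1.64) and FBLN1 (-1.46) from day 5 to day 56 stand in OUT, and the filled point in IN is the rise of COL3A1 (0.73).

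A call in OUT and none in IR does not show that the courses differed, and that difference was tested as an interaction. The log2 difference between IR and OUT was higher at day 56 than at day 5 by 1.73 for COL14A1 (SE 0.64), by 1.06 for FBLN1 (SE 0.38) and by 1.45 for COL1A2. The first pair were under an unadjusted p of 0.01 and COL1A2 was not under 0.05. All had a limma adjusted p of 0.985, and no probeset passed adjustment, with 4.24% of all probesets under an unadjusted p of 0.05. COL3A1 had an interaction of -0.04. These interactions contain the IR and OUT difference at day 56, from which the study had picked COL1A2 and COL14A1. For COL1A2 and COL14A1 they are therefore no independent evidence. Without OUT day 5 replicate 3 the interactions were 1.44 for COL14A1, 0.82 for FBLN1, 1.29 for COL1A2 and -0.09 for COL3A1, none of them was under an unadjusted p of 0.01, and none passed adjustment by limma (adjusted p = 0.886 for the first 3 genes). For IN against OUT the FBLN1 difference changed by 1.38 from day 28 to day 56 (limma adjusted p = 0.267), since IN was the lower group at weaning and OUT was the lower group at day 56. The IR and OUT contrasts at day 56 and the age contrasts of OUT both rest on the 6 OUT day 56 arrays, so they are not separate pieces of evidence.

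Among the members, COL1A2 and COL14A1 were the pair whose values went together. Over the 54 arrays, which share the groups, Pearson's r was 0.82 and Spearman's rho 0.80, and r was 0.80 after the group means were taken out and 0.79 over 52 arrays without the 2 arrays farthest in COL1A2. FBLN1 followed them less closely, with r = 0.47 and rho = 0.39 with COL1A2 and r = 0.43 and rho = 0.28 with COL14A1, and within groups r was 0.27 and 0.36. COL3A1 ran against COL1A2 (r = -0.59, rho = -0.44, and -0.43 within groups). Its probeset was dim, at a level of 4 or more on only 7 arrays, so the negative r tells little of the COL3A1 transcript. The 2 COL1A2 probesets had r = 0.28 and rho = 0.20, and r was 0.42 within groups. These correlations are descriptions over arrays of 9 groups and were not tested.

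**Figure D4:**
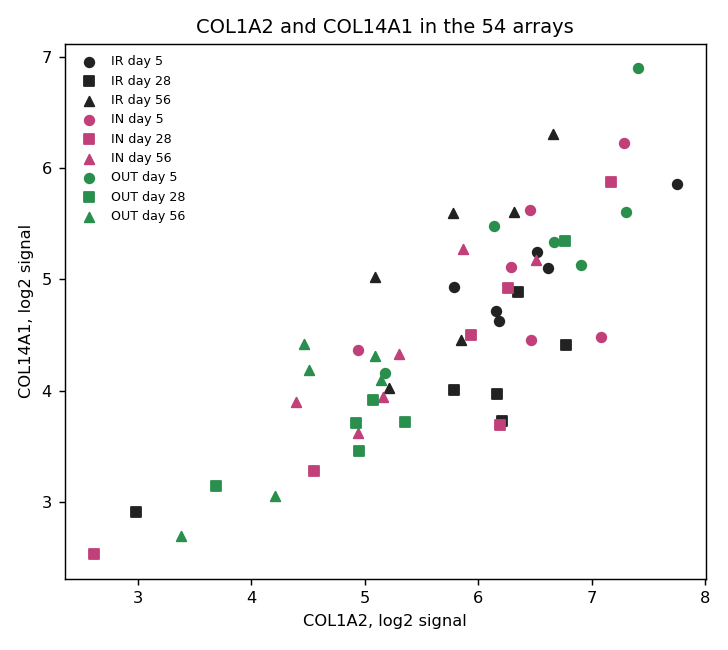
COL14A1 log2 signal (y axis) against COL1A2 log2 signal (x axis, Ssc.24975.1.S1_at), with each point an array, coloured by rearing treatment. The 54 points lie along a rising line (Pearson's r = 0.82).

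Single arrays at weaning carried much of the spread. IN day 28 replicate 2 had the lowest COL1A2 (2.61), COL14A1 (2.52) and FBLN1 (6.34) of all 54 arrays and the highest COL3A1 (4.44). The arrays numbered 2 of IR and OUT were likewise the lowest of their day 28 groups in COL1A2 (2.99 and 3.69) and COL14A1 (2.91 and 3.14), and the highest in COL3A1 (4.42 and 4.32). The labels do not say what a shared number means. The mean of 73 other matrix genes was 6.39, 6.90 and 6.72 on the arrays numbered 2 of IN, IR and OUT, within the day 28 group ranges of 6.21 to 6.97, 6.43 to 6.93 and 6.40 to 7.24. Cell type lists moved with them in part. IN day 28 replicate 2 was the lowest of its group in the smooth muscle (9.81), pericyte (7.36) and epithelial (11.3) list means. It was the highest in the fibroblast (8.49), T cell (7.85), B and plasma cell (10.9) and macrophage (7.63) lists. IR day 28 replicate 2 was the highest of its group in the fibroblast (7.63) and endothelial (5.38) lists. It was the lowest in the B and plasma cell (7.32) and proliferation (8.66) lists. OUT day 28 replicate 2 was the lowest of its group in the macrophage (6.00), epithelial (11.9) and proliferation (6.88) lists. It was the highest in the enteric neuron and glia list (4.61). The part of these in the members' values was not tested.

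The members were then compared with 10226 other named probesets over the 54 arrays, with the members themselves left out, since their likeness to each other is given above. For COL14A1 they were largely matrix genes: FBN1, the main protein of microfibrils (r = 0.77), COL5A2, a chain of type V collagen (0.76), TIMP3, an inhibitor of matrix metalloproteinases (0.74), and LAMB1, a laminin chain (0.73). For FBLN1 they were ST5 (r = 0.86), COL4A2, a chain of basement membrane collagen (0.84), TNXB, a tenascin (0.79), PDLIM7 (0.79) and EFEMP2, itself a fibulin of elastic fibres (0.78). For COL1A2 they were VCL, which links actin to cell adhesions (r = 0.82), LOC100511376 (0.80), PPP6R3 (0.79), LOC100623720 (0.78) and WWP2, a ubiquitin ligase (0.76), while its r of 0.82 with the member COL14A1 was as high as that with VCL. VCL was also among the 5 closest to COL14A1 (0.73). For COL3A1 the closest were PPP1R15B (r = 0.68), COPG (0.67) and CD53, a protein of white blood cells (0.67). Of these 10226 probesets outside the members, 32 had r above 0.7 with FBLN1, 21 with COL1A2, 6 with COL14A1 and 0 with COL3A1.

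The other genes of the matrix were taken from a list of 134 matrix genes, of which 77 were measured and 73 were not members, each gene by its brightest probeset. The mean level of these 73 genes followed FBLN1 most closely (r = 0.81 over 54 arrays, 0.79 within groups), then COL14A1 (0.63 and 0.52) and COL1A2 (0.50 and 0.27), and COL3A1 had r = -0.22. In OUT from day 5 to day 56, 37 of the 73 were lower and 0 higher at a limma adjusted p under 0.05, with a median log2 difference of -0.78 against 0.01 over all probesets and 27.1% of all probesets called. Without OUT day 5 replicate 3, 27 were lower and 1 higher (TGFB1, 1.60), with a median of -0.48, and with only the OUT day 5 and day 56 groups in the fit 20 were called.

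The falls in OUT were spread over the roles of the matrix. Of the elastic fibre genes 4 of 4 fell, among them MFAP2 (log2 difference -2.72), MFAP5 (-1.72) and FBN1 (-1.21), which make up microfibrils, and EFEMP2 (-1.08). Of the proteoglycans 4 of 6 fell, with VCAN, a large hyaluronan-binding proteoglycan (-1.94), ASPN (-1.89), BGN (-1.50) and DCN, which coats collagen fibres (-0.52). Of the collagen processing genes 7 of 10 fell, led by PLOD1, a lysyl hydroxylase (-1.96), and FKBP10, a collagen chaperone (-1.39). Of the other fibrillar collagens 1 of 5 fell, COL5A2 (-0.73), while COL5A1 had a difference of -0.50 that did not pass (limma adjusted p = 0.330), and of the network and other collagens 4 of 9 fell, COL4A2 (-1.34), COL15A1 (-1.20), COL7A1 (-1.11) and COL18A1 (-1.07). Of the matrix glycoproteins 7 of 15 fell, with TNXB (-2.11) and the laminin chains LAMC1 (-1.29) and LAMB1 (-1.01).

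Of matrix proteases and their inhibitors 6 of 14 fell, with MMP14 (-1.77), MMP1 (-1.65) and MMP2 (-1.50), and with the inhibitor TIMP3 (-1.49). Of the collagen receptors 2 of 3 fell, the integrin chains ITGA2 (-1.19) and ITGB1 (-0.54), and of the TGF-beta genes 2 of 7 fell, TGFBR3 (-0.91) and TGFB2 (-0.81). The falls counted by role without OUT day 5 replicate 3 were 4 of 4 elastic fibre genes, 3 of 6 proteoglycans, 5 of 10 processing genes, 0 of 5 fibrillar and 3 of 9 other collagens, 4 of 15 glycoproteins, 4 of 14 proteases and inhibitors, 2 of 3 receptors and 2 of 7 TGF-beta genes. Of the genes named here, DCN, COL5A2 and COL18A1 were then no longer called.

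From day 5 to day 28 in OUT, 22 of the 73 were lower and 0 higher, with a median of -0.52, among 9.44% of all probesets called as lower. Without OUT day 5 replicate 3, 12 were lower and 1 higher (PLOD3, 0.67), and with only those 2 groups in the fit 7 were called. After weaning the count was 3 lower, P4HA2 (-1.04), EFEMP2 (-0.99) and TIMP2 (-0.79), with a median of -0.17, at about the share of all probesets called as lower (3.34%). The after-weaning count was 0 without OUT day 56 replicate 2, 1 without OUT day 28 replicate 1, OUT day 28 replicate 4 or OUT day 56 replicate 4, and 5 without OUT day 56 replicate 3.

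Between day 5 and day 56 in IN, 13 of the 73 genes were lower and 1 higher (median -0.24). Of all probesets 29.8% were called, 16.4% as lower. MFAP2 (-3.31) and PLOD1 (-2.35) were among the falls, and PLOD3 (0.66) was the rise. In IR 7 were lower and 2 higher (median -0.12), where 19.8% of all probesets were called, 10.7% as lower. The rises were PLOD3 (0.90) and COL17A1, a hemidesmosome collagen of epithelium (0.87). In both treatments the falls were near the share of all probesets called as lower. The difference between the counts of the 3 treatments was not tested.

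COL1A2 and COL14A1 met the criterion for IR against OUT at day 56, as did 0.283% of all probesets. By limma 0 of the 73 other matrix genes did so. An unadjusted p under 0.05 was reached by 6 of the 73, near the share of all probesets by limma (7.19%). Of the 73, 54 had a positive difference, with a median of 0.20 against -0.01 over all probesets. The 6 were TIMP3 (log2 difference 0.80), TGFBR3 (0.54), PLOD1 (0.59) and P4HA2 (0.64), with positive differences, and THBS1 (-0.64) and TGFBR1 (-0.40), with negative ones. COL5A1 had a difference of 0.41 and DCN of 0.26. For IN against OUT at day 56, the criterion was met by 0.275% of all probesets and by 2 of the 73. These were MMP1, an interstitial collagenase (1.11), and COL18A1, a basement membrane collagen (1.09). The count was 1 when IN day 56 replicate 1, the unnumbered IN day 56 array or OUT day 56 replicate 5 was left out.

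**Figure D5:**
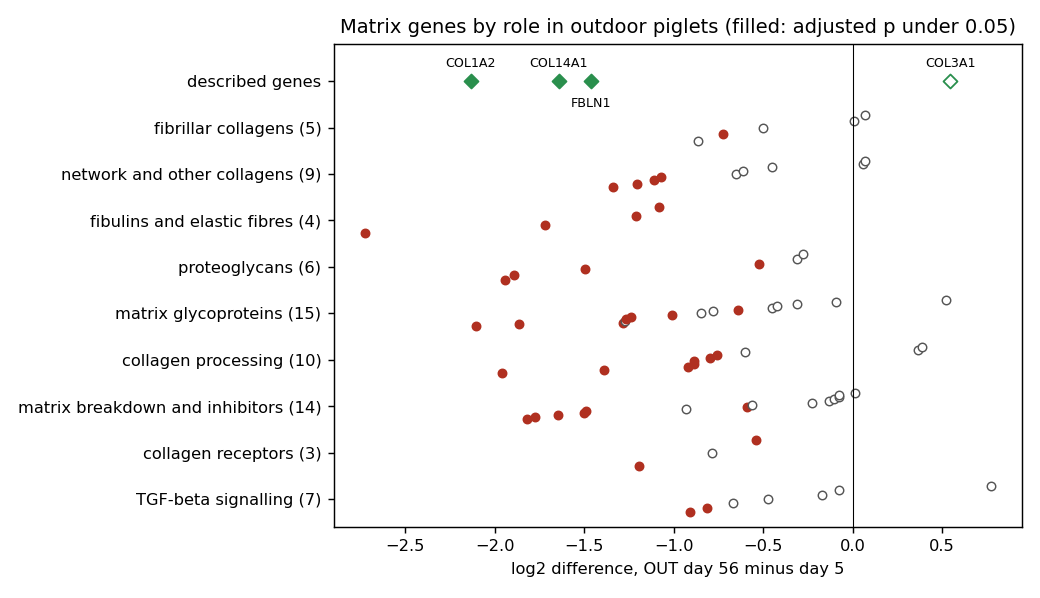
Log2 difference (x axis) of the other 73 matrix genes, arranged by role (y axis), for OUT from day 5 to day 56. Filled red points had an adjusted p under 0.05, and green diamonds are the 4 genes described. In OUT over age 37 of the 73 fell.

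Markers of other cell types moved with the same comparisons. In OUT from day 5 to day 56, 6 of 7 T cell genes rose (median log2 difference 4.93), and the mean of the list ran from 3.18 to 3.73 at day 5 and from 6.73 to 8.47 at day 56. All 7 endothelial genes fell (median -1.85), including LYVE1 (-2.62) and CDH5 (-2.52), with list means of 6.15 to 8.19 at day 5 (6.81 at most without OUT day 5 replicate 3) and 4.45 to 5.27 at day 56, and 4 of 7 epithelial genes rose. Of the cells that secrete matrix, both lists had 1 call. Of 9 smooth muscle genes 1 fell, ACTA2 (-0.88), with list means of 10.5 to 11.99 at day 5 and 9.71 to 11.6 at day 56, and of 5 fibroblast genes 1 fell, CLEC3B (-1.17), with list means of 6.80 to 8.90 (7.24 at most without OUT day 5 replicate 3) and 6.78 to 8.07. Without that array the counts of the T cell, endothelial, epithelial and smooth muscle lists stayed at 6, 7, 4 and 1, the endothelial median was -1.39, and in the fibroblast list CLEC3B was no longer called and 1 other gene, THY1 (1.92), was called as higher. Within groups FBLN1 had r = 0.79 with the smooth muscle list, 0.73 with the pericyte, 0.66 with the endothelial and 0.35 with the fibroblast list. COL14A1 had r = 0.45, 0.22, 0.51 and 0.17 with these lists in the same order, and COL1A2 had 0.38, 0.06, 0.19 and -0.09. The dim COL3A1 probeset had -0.14, -0.05, 0.09 and 0.37. For IR against OUT at day 56, 0.283% of all probesets met the criterion and 7.19% were under an unadjusted p of 0.05 by limma. In that comparison 1 of 5 fibroblast genes, CLEC3B (1.58), met the criterion, but its name could come from the study's list of called transcripts. By limma 0 of 9 smooth muscle genes (1 under an unadjusted p of 0.05) and 0 of 7 endothelial genes (0) did. None of the 7 T cell genes met it, but 6 had an unadjusted p under 0.05, with a median of -1.05 and list means of 5.78 to 7.81 in IR and 6.73 to 8.47 in OUT. The B and plasma cell list of 2 genes was at 11.3 and 11.8 in OUT day 56 replicates 2 and 5, and at 7.84 to 8.11 in the rest of that group. Replicate 2 had the group's lowest COL1A2 (3.38), COL14A1 (2.69) and FBLN1 (6.61), while replicate 5 had its highest COL1A2 (5.14). The part of these shifts in the collagen and fibulin differences was not tested.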

How the data were processed

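Ileal RNA of 54 piglets had been hybridised to GeneChip Porcine Genome arrays, 1 array per piglet. The authors scanned the arrays with GCOS 1.2 and normalised them with GCRMA, and the deposited values are log2 signals, used here as deposited. Array medians lay between 3.98 and 4.22. Of 24123 probesets, 94 controls were left out and 24029 tested. Probesets were named from GEO's platform annotation, which gave 1 symbol for 10099 and several for 198, and 132 more were named only from the study's supplementary list. In that list TNA, PLOD and XLKD1 were read as CLEC3B, PLOD1 and LYVE1. It holds transcripts that the study had called between treatments, so a treatment call of a gene named from it is no independent evidence.

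Treatments were compared within each day by limma 3.58.1 (R 4.3.3), with the 3 groups of that day in one fit, at p under 0.01 and 2-fold. The study's blocking by run could not be repeated as the labels give no run. Ages and interactions were fitted with all 9 groups and called at a Benjamini-Hochberg adjusted p under 0.05. Single members were also tested by exact two-sided permutation (scipy 1.17.1). The arrays were taken as 1 piglet each, and their number limits the precision. On simulated data with 24029 probesets, shifts of 1 and 2 log2 units were called in 27% and 99% of 100 for IR against OUT at day 56, and in 62% and 98% for IR from day 5 to day 56. The members, the matrix genes and the cell type lists were chosen with earlier results of these data known. Genes were named by role (every member, the brightest or most changed of each matrix role, and the 5 probesets most like each member), and some, such as the 6 matrix genes under an unadjusted p of 0.05, after their values were seen. Alternatives were a Benjamini-Hochberg criterion, other sets of groups in the fit, array weights, leaving out dim probesets (below 4 on all but fewer than 6 arrays), a further quantile normalisation, median centring, an intensity trend, blocks by label number, and leaving out each array. The fits of the interactions and of the gene lists without OUT day 5 replicate 3 were chosen after seeing the data.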

Additional observations from a re-analysis of the deposited data

Results flagged for a closer look

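In 3 of the 45 groups of 6 arrays tested for the members, 1 array lay far from the others, and chance gives about 1 in 20 such groups. COL1A2 (Ssc.24975.1.S1_at) was 2.99 in IR day 28 replicate 2, while the others were between 5.78 and 6.78, so the gap was 0.738 of the group's range. COL3A1 was 4.42 in the same array, against 2.90 to 3.21 in the others (0.798 of the range). COL14A1 was 5.35 in OUT day 28 replicate 1, against 3.14 to 3.91 in the others (0.653 of the range). IR day 28 replicate 2 correlated with its group at a mean r of 0.975, where the group median was 0.982.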

How the results depend on the processing

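For IR against OUT at day 56, the 2 members called became 0 by adjusted p, 1 with 9 groups in one fit (COL14A1 kept) and 1 with the label number as a replicate block (COL1A2 kept, and COL14A1 lost at a difference of 1.44), and 1 to 2 when single arrays were left out. The numbers were not taken to pair the arrays, because 19 of 50 same-numbered pairs deviated together at r above 0.1 (median 0.05), and 2 day 56 arrays without a number were left out of the block. For IN against OUT at day 56 the count was 0, and 0 to 1 with single arrays left out. Of the age comparisons, OUT from day 5 to day 56 kept 3 members (3 to 4 with single arrays left out), and OUT from day 5 to day 28 went from 1 to 2 under array weights, with dim probesets left out, with numbers taken in twos as a block, and with 1 treatment per fit (1 to 2 with single arrays left out). IN from day 5 to day 28 went from 0 to 1 with dim probesets left out, after a further quantile normalisation and with the block in twos (0 to 2 with single arrays left out), and IN from day 5 to day 56 went from 1 to 0 at p under 0.01 with 2-fold. IR went from 0 to 1 from day 5 to day 28 under array weights, with 2 groups or with 1 treatment per fit, from day 28 to day 56 under array weights, and from day 5 to day 56 with 2 groups. No direction reversed, and in the other 164 recomputed counts the value was within 1.5 times. The 37 other matrix genes called in OUT from day 5 to day 56 became 20 with only those 2 groups fitted and 24 with 1 treatment per fit, and the 22 from day 5 to day 28 became 7. COL3A1 and the second COL1A2 probeset lay near background on most arrays, which limits what their small differences can show.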
